A study of Mus musculus with 22 samples.

Results

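The 9 genes described here are a fixed set of interferon-stimulated genes: Ifit1, Ifit2, Ifit3, Isg15, Rsad2 and Bst2, which encode antiviral effectors, Usp18 and Irf7, which regulate the response, and Ifih1, which encodes an RNA sensor. They were listed by gene symbol, with earlier results of these data known. All 9 were found among the 56860 gene symbols of the deposited table. All 9 reached at least 1 TPM (transcript abundance corrected for length and scaled to one fixed total per library) in at least 5 mice, as did 16749 genes in all. Islets were isolated from 22 male mice aged 5.5 weeks, and the poly(A) RNA of each mouse gave 1 library. MafA is a beta cell transcription factor that drives insulin gene expression; animals were either wild type (WT) or carried 1 S64F allele of it (Het). The genetic background was C57 (5 WT and 6 Het mice) or Mixed (5 WT and 6 Het mice), and which strains make up Mixed is not stated in the labels. No treatment is given for any group. Mice are numbered within each group only to name them. The libraries were numbered group after group, so library order and group cannot be told apart.

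Interferons are secreted proteins that warn cells of viral nucleic acid. Type I and type III interferons bind receptors that activate the kinases Jak1 and Tyk2, which phosphorylate transcription factors such as Stat2. With Irf9, Stat2 acts in a complex that binds the interferon-stimulated response element, a pair of GAAA repeats, and raises transcription of the genes described here. Many of these genes are also transcribed at a low level without infection. In islets, interferon signatures are known from autoimmune diabetes.

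In C57 islets, Het mice had more Ifih1 mRNA and less Usp18 mRNA than WT mice, and the other 7 genes did not pass the test. In Mixed islets, Het mice again had more Ifih1 and less Usp18, and also more Bst2, Ifit1 and Ifit3. The largest background difference was that of Rsad2, whose mean level was 2.73 times as high in C57 as in Mixed islets of WT mice and 3.01 times as high in those of Het mice. Whether alleles of the Mixed mice that differ from the reference altered read mapping was not tested, and this applies to every value compared between backgrounds. Bst2 was the member whose genotype difference itself differed between backgrounds. In each comparison of a pair of groups, members that passed the test lay in both directions.

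Over all 22 mice the highest mean level among the 9 genes was that of Bst2, at 18.5 TPM, followed by Usp18 at 12.2, Rsad2 at 11.1, Ifih1 at 7.70, Isg15 at 5.08, Irf7 at 4.71, Ifit3 at 3.45, Ifit1 at 2.67 and Ifit2 at 2.38 TPM. The highest single value was 27.7 TPM, for Bst2 in 1 C57 WT mouse. The lowest was 0.927 TPM, for Ifit3 in 1 Mixed WT mouse. The islets therefore held low but measurable amounts of these mRNAs in every group. The table gives TPM only, so the depth behind these values is unknown and no counting interval could be given.

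**Figure D1:**
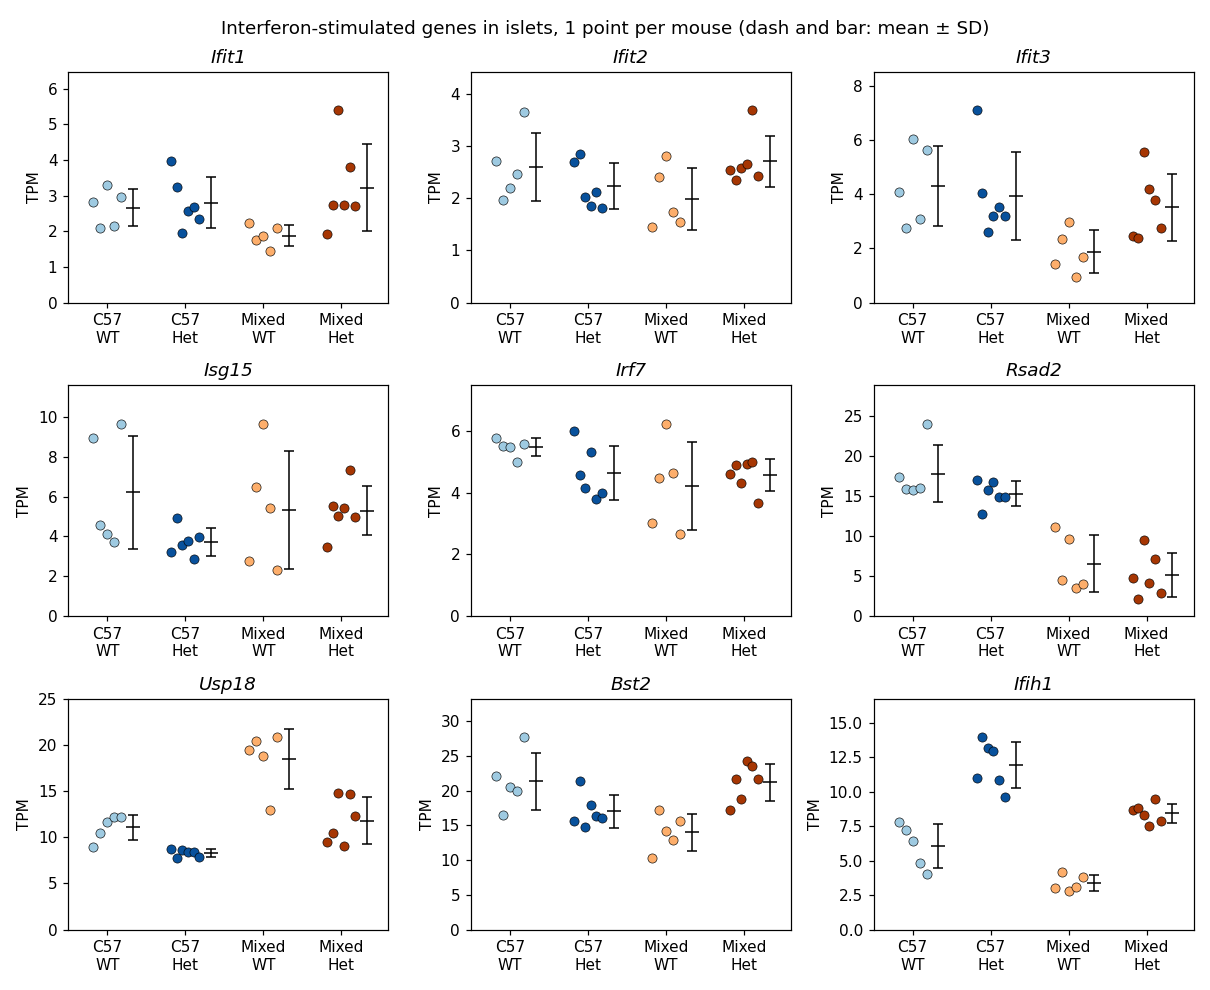
TPM (y axes, each from 0) of the 9 interferon-stimulated genes in each mouse, by group (x axes); points are mice, and the dash and bar beside them are the mean and SD of 5 or 6 mice. Ifih1 is higher in Het than in WT mice of both backgrounds without overlap, and Rsad2 is lower in Mixed than in C57 mice of both genotypes without overlap.

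Sequences upstream of the start sites were read from the RefSeq promoter table (GRCm38.p6, C57BL/6J reference), which covers 250 bases before and 50 bases after each start. They are shown because the response element is what these genes are known to share. The motif searched was GAAANNGAAA on both strands (TTTCNNTTTC on the other), and matches may overlap each other. It was found in 1131 of 32851 windows, or 3.44%, and 0.225% of windows held at least 2 matches. The table held windows for 8 of the 9 genes; Usp18 is named only. Of these 8 genes, 6 had a match: Isg15 had 3, Ifit1, Ifit3 and Bst2 had 2 each, and Rsad2 and Ifih1 had 1 each. The windows of Ifit2 and Irf7 held none with these letters. Capitals mark the matches in the 250 bases before each start, written 5′ to 3′ on the gene's own strand, and in Isg15 and Bst2 the matches overlap. The Ifih1 match lies after the start, and 30 bases around it are shown.
Ifit1, chr19:34640639-34640888, plus strand: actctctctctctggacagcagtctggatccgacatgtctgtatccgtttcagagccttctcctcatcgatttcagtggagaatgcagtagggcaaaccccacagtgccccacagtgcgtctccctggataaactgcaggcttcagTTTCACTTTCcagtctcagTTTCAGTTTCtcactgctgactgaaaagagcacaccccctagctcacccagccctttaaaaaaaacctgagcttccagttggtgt
Ifit3, chr19:34583279-34583528, plus strand: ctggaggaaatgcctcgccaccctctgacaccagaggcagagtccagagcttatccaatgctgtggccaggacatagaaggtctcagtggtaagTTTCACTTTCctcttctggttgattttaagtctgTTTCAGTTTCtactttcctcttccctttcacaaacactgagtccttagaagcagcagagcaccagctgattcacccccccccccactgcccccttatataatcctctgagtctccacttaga
Isg15, chr4:156200819-156201068, minus strand: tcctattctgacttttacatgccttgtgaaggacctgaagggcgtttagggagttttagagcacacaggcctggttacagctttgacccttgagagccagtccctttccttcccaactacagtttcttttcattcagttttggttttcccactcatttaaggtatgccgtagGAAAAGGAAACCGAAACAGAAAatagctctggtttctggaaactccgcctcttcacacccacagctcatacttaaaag
Rsad2, chr12:26456453-26456702, minus strand: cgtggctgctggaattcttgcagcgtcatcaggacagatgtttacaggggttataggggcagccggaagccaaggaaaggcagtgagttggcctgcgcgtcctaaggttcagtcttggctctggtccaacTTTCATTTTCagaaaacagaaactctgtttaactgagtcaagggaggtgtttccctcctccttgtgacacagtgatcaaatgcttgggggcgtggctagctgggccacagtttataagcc
Bst2, chr8:71537473-71537722, minus strand: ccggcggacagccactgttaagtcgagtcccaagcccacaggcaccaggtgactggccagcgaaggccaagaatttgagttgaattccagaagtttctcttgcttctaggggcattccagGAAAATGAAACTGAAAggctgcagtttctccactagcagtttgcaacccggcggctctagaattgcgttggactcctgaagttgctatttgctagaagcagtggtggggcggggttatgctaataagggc
Ifih1, chr2:62646206-62646235, minus strand: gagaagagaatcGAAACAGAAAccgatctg
In Ifit1 and Ifit3 the matches share the letters TTTCACTTTC and TTTCAGTTTC in the same order. They begin 104 and 85 bases before the start of Ifit1, and 156 and 122 bases before that of Ifit3. The 3 matches of Isg15 begin 78, 72 and 66 bases before its start, those of Bst2 130 and 124 bases before, and that of Rsad2 120 bases before. The Ifih1 match begins at base 32 after the start. A match is a description of letters in the reference and no evidence of binding, and alleles of the Mixed mice were not used here.

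Ifih1 (ENSMUSG00000026896) encodes MDA5, a cytosolic sensor of long double-stranded RNA that signals through Mavs. In C57 WT mice its level was 7.84, 7.19, 6.46, 4.85 and 4.03 TPM. In the 6 C57 Het mice it ran from 9.63 through a median of 12.0 to 13.9 TPM. Every Het mouse was above every WT mouse. The means were 6.07 ± 1.60 TPM (SD, n = 5) in WT and 11.9 ± 1.68 TPM (SD, n = 6) in Het, a ratio of 1.96. The difference of log2(TPM + 1) was 0.89 (SE 0.13, 95% interval 0.62 to 1.16), with an adjusted p of 2.59e-05 from limma, adjusted over the 16749 genes by the Benjamini-Hochberg method as for all adjusted p-values below.

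In Mixed WT mice Ifih1 was at 3.04, 4.19, 2.81, 3.08 and 3.79 TPM. In Mixed Het mice it ran from 7.49 through a median of 8.47 to 9.47 TPM. Again the genotypes did not overlap. The means were 3.38 ± 0.582 TPM (SD, n = 5) and 8.43 ± 0.709 TPM (SD, n = 6), a ratio of 2.49. On the log2 scale the rise was 1.11 (SE 0.13, adjusted p = 7.78e-07, limma). The rises in the 2 backgrounds differed by 0.22 (95% interval -0.16 to 0.60, adjusted p = 0.467), so a difference between them was not shown.

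The level of Ifih1 was also lower in Mixed than in C57 islets of both genotypes. The log2 difference was -0.67 in WT mice (SE 0.14, adjusted p = 0.00242, limma) and -0.45 in Het mice (SE 0.12, adjusted p = 0.0127). The Het groups did not overlap, while in WT mice the highest Mixed mouse, at 4.19 TPM, was just above the lowest C57 mouse, at 4.03 TPM. Ordered by mean, the groups ran C57 Het, Mixed Het, C57 WT, Mixed WT, and the Mixed Het and C57 WT ranges overlapped.

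Markers of islet endocrine cells other than beta cells moved with genotype in the same direction as Ifih1. Of 7 such markers, 5 rose in C57 Het islets (26.4% of all genes) and 6 in Mixed Het islets (30.7%), and 0 fell. Their summed level ran from 43392 to 84920 TPM in C57 WT, 98918 to 146349 in C57 Het, 42972 to 74701 in Mixed WT and 122449 to 183850 in Mixed Het mice. None of these markers was at 0 in any group. Acinar markers rose as well, 9 of 9 tested in C57 and 3 of 9 in Mixed Het islets, and so did 3 and 5 of 6 duct markers, with 1 duct marker lower in Mixed. The part of these cells in the Ifih1 difference was not tested. In whole islets, fewer cells of a type and less RNA per cell cannot be told apart. In the RefSeq gene order, chosen for a look after the values were seen, Ifih1 lies on chromosome 2 beside Fap, which did not pass the filter on low values, and then Gcg, the glucagon gene. Gcg rose by 1.37 in C57 and 2.18 in Mixed Het islets (log2, adjusted p = 0.000423 and 1.15e-06, limma). The gene after Gcg, Dpp4, went the other way, by -0.03 in C57 and -0.40 in Mixed Het islets (adjusted p = 0.859 and 0.00262, limma). On the other side, Gca, which encodes a calcium-binding protein, was 0.31 higher in C57 Het islets (adjusted p = 0.0461) and 0.29 higher in Mixed Het islets (adjusted p = 0.0564).

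Rsad2 (ENSMUSG00000020641) encodes viperin, an enzyme that makes an antiviral form of CTP. In C57 WT mice it stood at 17.4, 15.9, 15.7, 16.02 and 24.0 TPM. In Mixed WT mice it stood at 11.2, 4.47, 9.59, 3.45 and 3.96 TPM. The groups did not overlap, but the Mixed mice were split between a pair near 10 TPM and 3 mice under 5 TPM. The means were 17.8 ± 3.53 and 6.53 ± 3.58 TPM (SD, n = 5 each), and the log2 difference was -1.43 (SE 0.28, adjusted p = 0.00211, limma).

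In C57 Het mice Rsad2 ran from 12.7 through a median of 15.3 to 17.0 TPM, and in Mixed Het mice from 2.14 through 4.48 to 9.50 TPM. Again every Mixed mouse was below every C57 mouse. The means were 15.3 ± 1.57 and 5.09 ± 2.76 TPM (SD, n = 6 each), and the log2 difference was -1.54 (SE 0.26, adjusted p = 0.000273, limma). Genotype did not pass the test for Rsad2: the difference was -0.19 in C57 (95% interval -0.76 to 0.37, adjusted p = 0.605) and -0.30 in Mixed islets (95% interval -0.87 to 0.26, adjusted p = 0.387).

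In the RefSeq order Rsad2 lies on chromosome 12 beside Cmpk2, a nucleotide kinase gene that is itself interferon-induced. Cmpk2 was also lower in Mixed islets, by a log2 difference of -0.61 in WT mice (adjusted p = 0.0179, limma) and -1.05 in Het mice (adjusted p = 5.67e-05). The WT call for Cmpk2 was lost without 1 Mixed WT mouse, number 4 (adjusted p = 0.0574), and in a fit on the WT mice alone (0.0942). Cmpk2 fell with genotype in Mixed islets, by 0.81 on the log2 scale (adjusted p = 0.000302); whether it differed from Rsad2 in this was not tested. On the other side of Rsad2, Rnf144a, a ubiquitin ligase gene, did not pass the test in any of the 4 pairwise comparisons (adjusted p from 0.120 to 0.872).

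Usp18 (ENSMUSG00000030107) encodes a protease that removes Isg15 from proteins and that dampens signalling at the type I interferon receptor. It was the member called lower in Het mice and higher in Mixed mice. In C57 WT mice its level was 8.96, 10.5, 11.6, 12.2 and 12.2 TPM, and in C57 Het mice it ran from 7.76 through a median of 8.40 to 8.71 TPM. The groups did not overlap, though the lowest WT mouse was close to the highest Het mouse. Usp18 fell by 0.37 on the log2 scale (SE 0.13, adjusted p = 0.0239, limma), from a mean of 11.1 ± 1.38 (SD, n = 5) to 8.30 ± 0.407 TPM (SD, n = 6). The call was lost without C57 WT mouse 4 (adjusted p = 0.0576) or 5 (0.0621). Over its 18 alternatives the adjusted p ran from 0.00666 to 0.0621.

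In Mixed WT mice Usp18 was at 19.4, 20.4, 18.9, 12.9 and 20.8 TPM. In Mixed Het mice it ran from 9.09 through a median of 11.4 to 14.8 TPM. The lowest Mixed WT mouse lay within the Het range, and the other 4 lay above it. Usp18 fell by 0.61 (SE 0.13, adjusted p = 0.00053, limma), from 18.5 ± 3.21 (SD, n = 5) to 11.8 ± 2.53 TPM (SD, n = 6). The genotype differences in the backgrounds did not pass a test against each other (-0.24, 95% interval -0.61 to 0.13, adjusted p = 0.411).

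Between backgrounds, Usp18 was higher in Mixed than in C57 islets by 0.68 in WT mice (SE 0.13, adjusted p = 0.00178, limma) and by 0.44 in Het mice (SE 0.12, adjusted p = 0.0125). Neither pair of groups overlapped. Of 9 lymphocyte markers 1, the B cell gene Cd79a, passed the filter, and it fell in Het islets of both backgrounds. The summed level of the 9 ran from 9.05 to 14.2 TPM in C57 WT, 3.51 to 6.16 in C57 Het, 4.32 to 11.7 in Mixed WT and 2.01 to 4.21 TPM in Mixed Het mice. Of 8 beta cell markers, 1 rose (26.4% of all genes) and 1 fell (11.6%) in C57 Het islets, and 5 fell in Mixed Het islets (13.5%). The part of these cells in the Usp18 differences was not tested. Usp18 and Rsad2 thus differed between backgrounds in opposite directions in both genotypes, each by the calls given.

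Bst2 (ENSMUSG00000046718) encodes tetherin, a membrane protein that holds budding virus particles on the cell surface. In Mixed WT mice it was at 10.2, 17.2, 14.2, 12.9 and 15.6 TPM. In Mixed Het mice it ran from 17.2 through a median of 21.7 to 24.2 TPM. The ranges touched without overlapping: the highest WT mouse was at 17.15 and the lowest Het mouse at 17.22 TPM. Bst2 rose in Mixed Het islets by 0.57 (SE 0.13, adjusted p = 0.00115, limma), from 14.02 ± 2.64 (SD, n = 5) to 21.2 ± 2.697 TPM (SD, n = 6).

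In C57 mice Bst2 did not pass the test. The WT mice had 22.1, 16.4, 20.5, 19.9 and 27.7 TPM, and the Het mice ran from 14.8 through a median of 16.2 to 21.4 TPM. These groups overlapped. The difference was -0.30 (SE 0.13, 95% interval -0.57 to -0.03), and its adjusted p of 0.0689 missed the threshold. It passed under median-of-ratios scaling (0.0328) and quantile normalization (0.0222), and without C57 WT mouse 2 (0.0223) or C57 Het mouse 2 (0.033), over a range of 0.0222 to 0.226. The difference between the 2 genotype differences was 0.87 (SE 0.18, 95% interval 0.50 to 1.25), and it passed with an adjusted p of 0.00767 (limma). Over the 28 alternatives of this test it ran from 0.77 to 0.96, with an adjusted p of at most 0.0184. Bst2 was also lower in Mixed than in C57 WT mice, by a log2 difference of -0.57 (adjusted p = 0.00782), a call lost in a fit on WT mice alone (0.0571; range over alternatives 0.00294 to 0.0571). In Het mice its background difference was 0.30 (adjusted p = 0.0868).

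Leukocyte and macrophage markers also differed between the groups. Of 12 listed, 10 passed the filter. In C57 Het islets 0 were higher (26.4% of all genes) and 3 lower (11.6%). In Mixed Het islets 7 were higher (30.7%) and 1 lower (13.5%). The test of the difference between backgrounds was passed by 6, all positive (4.62%). The summed level of the 12 ran from 246 to 310 TPM in C57 WT, 146 to 214 in C57 Het, 129 to 177 in Mixed WT and 200 to 400 in Mixed Het mice. In that order, the mean sums were 272, 173, 165 and 251 TPM. The largest part was C1qa alone, with means of 178, 103, 79.9 and 117 TPM, so the sum mostly follows 1 gene. Means of Lyz2, Csf1r, Fcer1g and Cd14 were higher in Mixed WT than in C57 WT islets, unlike the sum. Itgam, which encodes a myeloid integrin, was at 0 in 3 mice, and neither it nor Ptprc, the pan-leukocyte gene, passed the filter. Mesenchymal markers were higher in Mixed Het islets as well, 5 of 6 tested, and 0 of 6 passed in C57. The part of these cells in the Bst2 difference was not tested. Of 7 markers of plasmacytoid dendritic cells, the classic producers of type I interferon, 4 passed the filter, with 2 higher and 1 lower in C57 Het and 2 higher in Mixed Het islets. The defining ones were low in all mice: Siglech reached at most 0.830 TPM and Ccr9 at most 0.0303 TPM. The T cell gene Cd3e was at 0 in 11 mice.

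The Ifit genes encode proteins that bind viral RNA and block its translation, and they lie together on chromosome 19. Ifit3 (ENSMUSG00000074896) was at 4.07, 2.74, 6.03, 3.09 and 5.64 TPM in C57 WT mice and at 1.43, 2.36, 2.99, 0.927 and 1.69 TPM in Mixed WT mice. It ran from 2.59 through 3.37 to 7.10 TPM in C57 Het and from 2.39 through 3.27 to 5.56 TPM in Mixed Het mice. Mixed WT was the low group, but its highest mouse was within the range of every other group.

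Ifit3 rose in Mixed Het over Mixed WT islets by 0.66 (SE 0.23, adjusted p = 0.0232, limma), a ratio of means of 1.88. This call was lost without Mixed WT mouse 1 (0.0519) or 4 (0.0838), without Mixed Het mouse 3 (0.059), with no filter on low values (0.0514) and under median-of-ratios scaling (0.0638), over a range of 0.0122 to 0.0838. Ifit3 was also lower in Mixed than in C57 WT islets, by a log2 difference of -0.88 (SE 0.24, adjusted p = 0.0181). That call was lost without C57 WT mouse 3 (0.0557) or 5 (0.0514), without Mixed WT mouse 4 (0.0562) and in a fit on WT mice alone (0.0514), over a range of 0.0104 to 0.0562. The near-identical gene Ifit3b lies in the same cluster, and how reads were split between the copies is not given in the sources used here, so the Ifit3 values are uncertain in that respect. Ifit3b was called in 0 of the 4 pairwise comparisons (adjusted p from 0.187 to 0.924).

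Ifit1 (ENSMUSG00000034459) was at 2.23, 1.76, 1.86, 1.45 and 2.09 TPM in Mixed WT mice. In Mixed Het mice it ran from 1.92 through a median of 2.74 to 5.39 TPM. Of the 6 Het mice, 1 lay within the WT range. Ifit1 rose by 0.51 (SE 0.16, adjusted p = 0.0149, limma), and the call was lost under median-of-ratios scaling (0.0519; range 0.00445 to 0.0519). In C57 mice it stood at 2.66 ± 0.525 TPM (SD, n = 5) in WT and 2.80 ± 0.715 TPM (SD, n = 6) in Het, a difference of 0.04 (95% interval -0.30 to 0.38, adjusted p = 0.857).

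Ifit2 (ENSMUSG00000045932) was not called in any comparison. Its means were 2.59 ± 0.653 and 2.22 ± 0.440 TPM in C57 WT and Het islets, and 1.99 ± 0.587 and 2.704 ± 0.491 TPM in Mixed WT and Het islets (SD, n = 5 and 6). The Mixed difference of 0.32 came nearest (95% interval 0.04 to 0.61, adjusted p = 0.0601). It passed without Mixed WT mouse 2 (0.0441) or 3 (0.0215), over a range of 0.0215 to 0.21. All 3 Ifit genes had their lowest mean in Mixed WT islets, and their neighbouring groups in the order of means overlapped.

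Isg15 (ENSMUSG00000035692) encodes a ubiquitin-like protein that is attached to other proteins after interferon. Its values were widely spread within the WT groups. The C57 WT mice had 8.94, 4.60, 4.12, 3.73 and 9.65 TPM and the Mixed WT mice 2.77, 6.48, 9.62, 5.42 and 2.32 TPM. Both groups held mice above 8 TPM and mice under 4 TPM. The Het mice ran from 2.89 through 3.68 to 4.92 TPM in C57 and from 3.48 through 5.23 to 7.33 TPM in Mixed. Among pairs of groups, the largest difference was -0.54 between C57 Het and WT (SE 0.26, 95% interval -1.07 to 0.00, adjusted p = 0.107), and none of its comparisons was called.

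Irf7 (ENSMUSG00000025498) encodes a transcription factor that amplifies type I interferon production. It was also not called in any comparison. Its means in C57 islets were 5.47 ± 0.295 TPM for WT and 4.64 ± 0.866 TPM for Het mice, and those in Mixed islets 4.21 ± 1.43 and 4.56 ± 0.517 TPM (SD, n = 5 or 6). The 5 C57 WT mice were the tightest, between 4.98 and 5.78 TPM, and the 5 Mixed WT mice the widest, between 2.68 and 6.23 TPM. The background difference in WT mice was -0.36 (95% interval -0.66 to -0.05, adjusted p = 0.121), and it passed without Mixed WT mouse 3 (0.0259; range 0.0259 to 0.283).

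**Figure D2:**
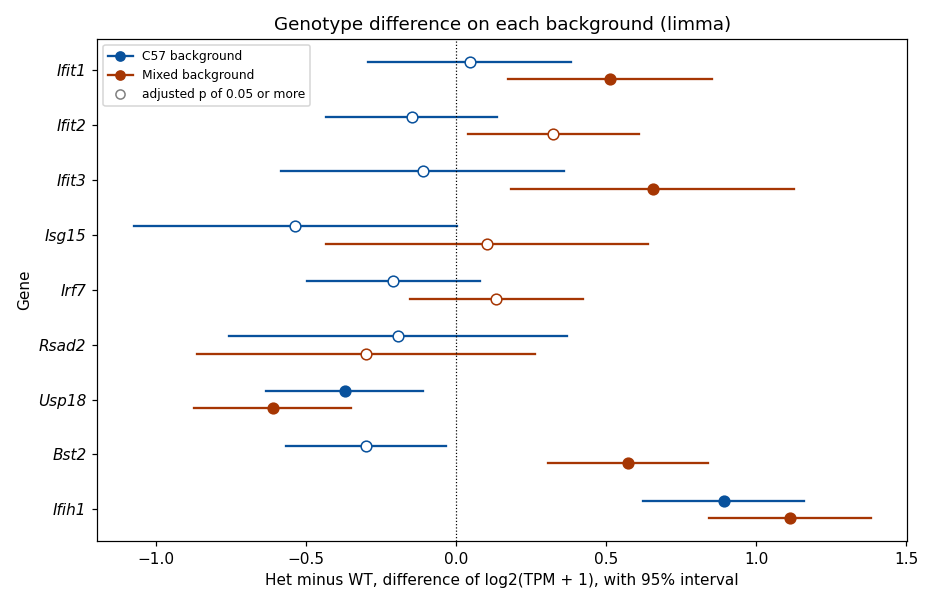
Difference of log2(TPM + 1) between Het and WT mice (x axis) for each gene (y axis) in C57 and Mixed islets, with its 95% interval from limma; filled points have an adjusted p under 0.05. Ifih1 is at 0.89 and 1.11, Usp18 is below 0 in both backgrounds, and Bst2 is at -0.30 in C57 and 0.57 in Mixed.

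Counted together, 2 of the 9 genes passed in C57 Het against WT islets, while 38.0% of all genes tested passed. Of these 2, 1 was higher (26.4% of all genes) and 1 lower (11.6%). In Mixed islets 5 passed, against 44.1% of all genes, 4 of them higher (30.7%) and 1 lower (13.5%). The test of the difference between backgrounds called 1 gene, Bst2, against 7.36%, and it was positive (4.62%; 2.74% of all genes were negative). Between backgrounds, 5 passed in WT mice, against 11.3%, with 1 higher (6.30%) and 4 lower (4.99%) in Mixed. In Het mice 3 passed, against 20.5%, with 1 higher (13.3%) and 2 lower (7.14%). The median difference of the 9 genes was -0.19 in C57 and 0.32 in Mixed for genotype, beside 0.08 and 0.10 over all genes, and 0.47 for the difference between backgrounds, beside 0.02. For background it was -0.36 in WT and 0.12 in Het mice, beside 0.01 and 0.02.

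Without a model, the genotypes did not overlap for 2 genes in C57, where 21.0% of all genes tested did not overlap. Ifih1 was higher (15.9% of all genes) and Usp18 lower (5.05%) in Het. They did not overlap for 2 genes in Mixed, against 23.6%, and both Ifih1 and Bst2 were higher (17.9%; 5.76% of all genes were lower). The backgrounds did not overlap for 2 genes in WT mice, against 6.13%, with Rsad2 lower (3.21%) and Usp18 higher (2.91%) in Mixed. In Het mice they did not overlap for 3 genes, against 9.85%, with Rsad2 and Ifih1 lower (3.28%) and Usp18 higher (6.57%).

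**Figure D3:**
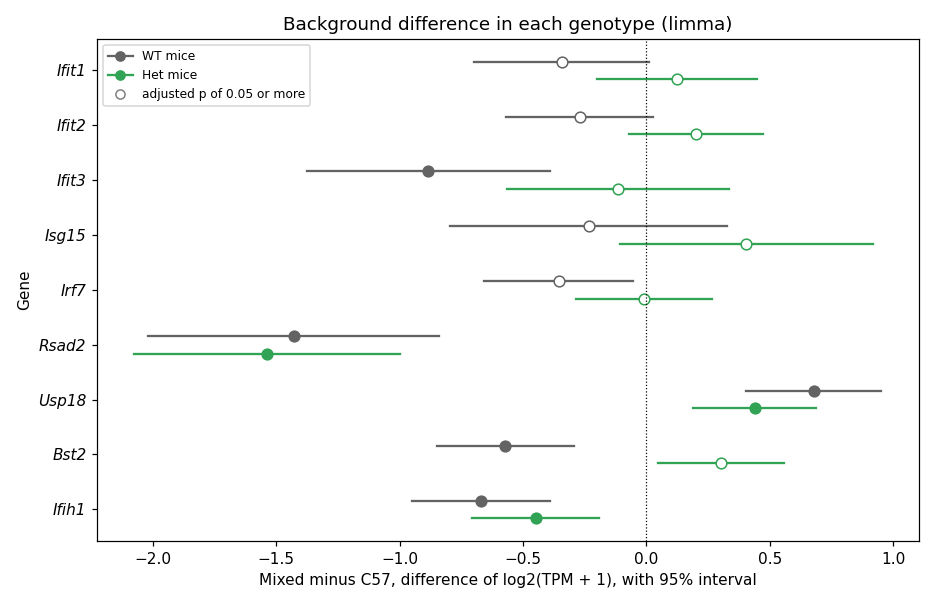
Difference of log2(TPM + 1) between Mixed and C57 mice (x axis) for each gene (y axis) in WT and Het mice, with its 95% interval from limma; open points have an adjusted p of 0.05 or more. Rsad2 is at -1.43 and -1.54, Usp18 is above 0 in both genotypes, and Bst2 is at -0.57 in WT and 0.30 in Het.

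The genes could also be compared mouse by mouse, as deviations of log2(TPM + 1) from the mean of each mouse's group. In Mixed Het mouse 5, all 9 genes were above the group mean, in C57 WT mouse 5, 8 were, and in Mixed WT mice 2 and 3, 7 were. In C57 WT mouse 4 and C57 Het mice 5 and 6, 1 of the 9 was above it. Over the 36 pairs of genes, Pearson's r of these deviations across 22 mice ran from -0.25 to 0.76 with a median of 0.21, and 28 were positive. The values of a pair share the same libraries.

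Ifit1 and Ifit3 deviated together most (r = 0.76, Spearman's rho = 0.81, permutation p = 9e-05 and 8e-05 over 100000 resamples within groups, 0.00324 and 0.00288 adjusted over the 36 pairs). Without the 2 mice farthest from the median of Ifit1, r was 0.65. Ifit2 and Isg15 followed (r = 0.75, rho = 0.65, permutation p = 0.00068 and 0.00894, adjusted 0.0122 and 0.0926), with r = 0.62 without the 2 farthest mice. Isg15 and Irf7 had r = 0.66 and rho = 0.59 (permutation p = 0.0047 and 0.00823, adjusted 0.0564 and 0.0926), with r = 0.41 without the 2 farthest mice, so that this relation rests in part on those mice. The 8 pairs of Ifih1, the member with the largest genotype difference, had r from -0.25 to 0.01, with a lowest adjusted permutation p of 0.376.

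**Figure D4:**
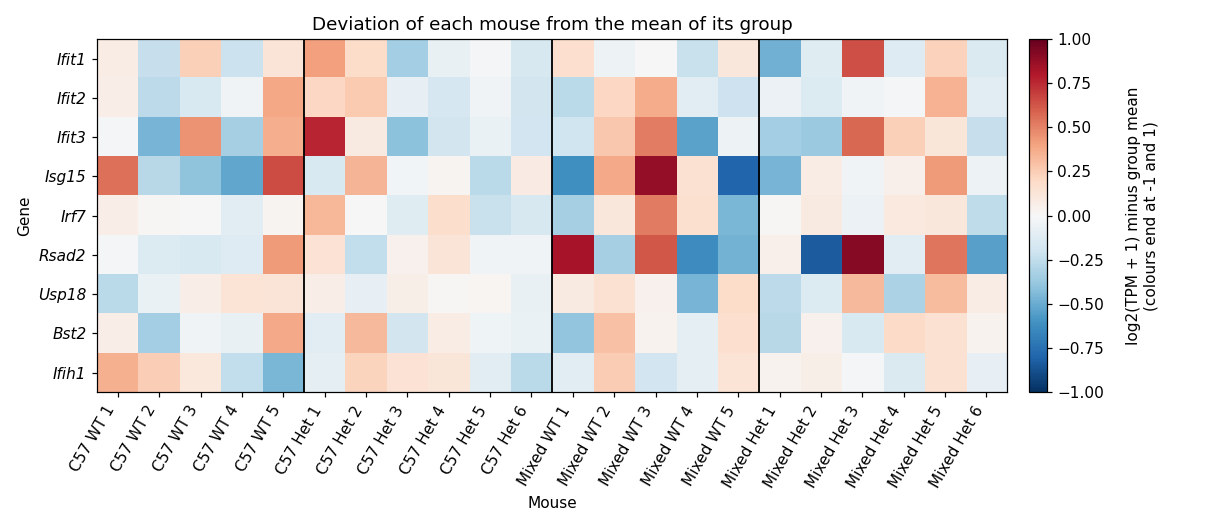
Deviation of log2(TPM + 1) from the mean of the mouse's own group (colour, ending at -1 and 1) for each gene (rows) in each of the 22 mice (columns, with lines between groups). Mixed Het mouse 5 is above its group mean for all 9 genes, and the Ifih1 row has r of at most 0.01 with any other row.

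The genes outside the set whose deviations were most like the mean of the 9 were Tgtp2 (r = 0.77 over 22 mice), Rtp4 (0.76), Oasl1 (0.74), P2ry12 (0.73) and Gbp3 (0.73). These 5 were picked as the highest among all tested genes outside the set, and no chance level was computed for such a pick. Their group means were at or below 5.24 TPM. Tgtp2, an interferon-inducible GTPase gene, had means of 2.26 and 1.75 TPM in C57 WT and Het and 1.15 and 0.923 TPM in Mixed WT and Het islets, so its order of groups was that of Rsad2. Rtp4, a chaperone gene for membrane receptors, had means of 4.62, 4.45, 3.12 and 4.89 TPM in the same order, lowest in Mixed WT islets like the Ifit genes.

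Interferon genes other than Ifnb1, the interferon beta gene, were hardly detected. Of 21 ligand genes, 0 passed the filter on low values, 9 were listed at 0 in every mouse, and only Ifnb1 reached 1 TPM in any mouse. Ifnb1 was at 0.477, 1.94, 4.92, 3.93 and 0.294 TPM in the 5 Mixed WT mice. In the other 17 mice it was at most 0.558 TPM. The 3 Mixed WT mice with the most Ifnb1 were the 3 with the most Isg15, at 6.48, 9.62 and 5.42 TPM, while the other 2 had 2.77 and 2.32 TPM of Isg15. The 9 genes did not all share this order. In Mixed WT mouse 4, with Ifnb1 at 3.93 TPM, 2 of the 9 were above the group mean. That mouse was the lowest of its group for Ifit1, Ifit3, Rsad2 and Usp18. In Mixed WT mice 2 and 3, 7 of the 9 were above the group mean, and in mice 1 and 5, 3 and 4 were. A relation with Ifnb1 was not tested. In C57 WT mice 1 and 5, Isg15 was at 8.94 and 9.65 TPM with Ifnb1 listed at 0.

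Of 6 receptor genes, 5 passed the filter. Ifnlr1, the receptor chain for type III interferon, rose in Het islets of both backgrounds, from 1.34 ± 0.142 to 2.47 ± 0.353 TPM in C57 (log2 difference 0.56, adjusted p = 0.00021, limma) and from 1.27 ± 0.204 to 2.21 ± 0.375 TPM in Mixed (0.50, adjusted p = 0.000381). Ifngr2, a chain of the type II receptor, rose in Mixed Het islets (0.65, adjusted p = 0.000532). Ifnar2, a chain of the type I receptor, rose there too (0.32, adjusted p = 0.0187), a call lost without Mixed WT mouse 3 (0.0715) and under median-of-ratios scaling (0.099). Ifnar1, the other type I receptor chain, was not called in any comparison (log2 differences 0.23 in C57 and 0.18 in Mixed for genotype, adjusted p = 0.0703 and 0.142). So 1 of 5 rose in C57 (26.4% of all genes) and 3 of 5 in Mixed Het islets (30.7%), and 0 fell. In C57, 1 was higher and 1 lower under both median-of-ratios scaling and quantile normalization. In the test of the difference between backgrounds 0 of the 5 passed (limma). Between backgrounds, Ifnar2 differed by -0.37 in WT mice (adjusted p = 0.037), a call lost without C57 WT mouse 1 or 5 or Mixed WT mouse 1 or 3 (up to 0.11). Ifngr1, the other type II receptor chain, was 0.28 higher in Mixed Het mice (adjusted p = 0.0243), a call lost without C57 Het mouse 1 or 3 or Mixed Het mouse 1, 5 or 6 (up to 0.0747).

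All 11 genes of the kinases and transcription factors passed the filter. Stat2, which acts with Irf9 in the interferon-activated complex, fell in Het islets of both backgrounds, from 19.9 ± 3.79 to 14.8 ± 2.12 TPM in C57 (log2 difference -0.39, adjusted p = 0.0201, limma) and from 23.1 ± 5.25 to 13.98 ± 0.678 TPM in Mixed (-0.66, adjusted p = 0.000293). Without C57 WT mouse 1 or 4 or C57 Het mouse 3 the C57 call was lost (adjusted p from 0.0511 to 0.0751). Ikbke, a kinase that activates Irf3 and Irf7, was lower in Het islets of both backgrounds as well (-0.35, adjusted p = 0.0346, and -0.48, adjusted p = 0.00423), but the C57 call was lost without C57 WT mouse 1 or 4 or C57 Het mouse 2, 3 or 6 (adjusted p up to 0.127). Irf1 fell by 1.03 in Mixed Het islets, from 119 ± 43.8 to 55.7 ± 12.5 TPM (adjusted p = 0.000523). Jak1, a kinase of the interferon receptors, rose by 0.49 in C57 Het islets (adjusted p = 0.0016) and Irf5, a transcription factor of myeloid cells, by 0.44 in Mixed Het islets (adjusted p = 0.00897). That gave 1 higher (26.4% of all genes) and 2 lower (11.6%) in C57, and 1 higher (30.7%) and 3 lower (13.5%) in Mixed. Under median-of-ratios scaling the same lists gave 1 higher and 4 lower, and 1 higher and 6 lower. Irf9, Irf3, Tbk1, Tyk2 and Jak2 were not called in either background. In the comparisons of backgrounds, 0 of 11 passed in WT mice, and in Het mice Irf5 was 0.56 higher (adjusted p = 0.0028) and Jak1 differed by -0.40 (adjusted p = 0.00896).

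Beside Ifih1, 11 further genes of nucleic acid sensing were in the table, of which 6 passed the filter. Mavs, the adaptor on which Ifih1 signals, rose in both backgrounds, from 11.9 ± 1.34 to 16.2 ± 1.06 TPM in C57 (log2 difference 0.42, adjusted p = 0.00357, limma) and from 10.03 ± 2.05 to 15.0 ± 1.73 TPM in Mixed (0.55, adjusted p = 0.00027). In Mixed Het islets the other RNA helicase genes also rose, Rigi by 0.31 (adjusted p = 0.0114) and Dhx58 by 0.46 (adjusted p = 0.000923), as did the DNA-sensing adaptor gene Sting1 by 0.47 (adjusted p = 0.0175). Tlr3, an endosomal RNA sensor, was 0.29 higher there (adjusted p = 0.0361), a call lost without Mixed WT mouse 2, 3 or 4 or Mixed Het mouse 1 or 5 (adjusted p up to 0.111). Eif2ak2, the RNA-activated kinase gene, was not called (0.23 in C57 and 0.10 in Mixed, adjusted p = 0.0548 and 0.411). So 1 of 6 rose in C57 (26.4% of all genes) and 5 of 6 in Mixed Het islets (30.7%), and 0 fell. Under median-of-ratios scaling 4 of 6 were higher in Mixed. In the test of the difference between backgrounds 0 of the 6 passed, and the nearest was Sting1 (0.70, adjusted p = 0.0505). Between backgrounds, 0 of 6 passed in WT mice and Sting1 was 0.72 higher in Mixed Het mice (adjusted p = 0.00146).

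**Figure D5:**
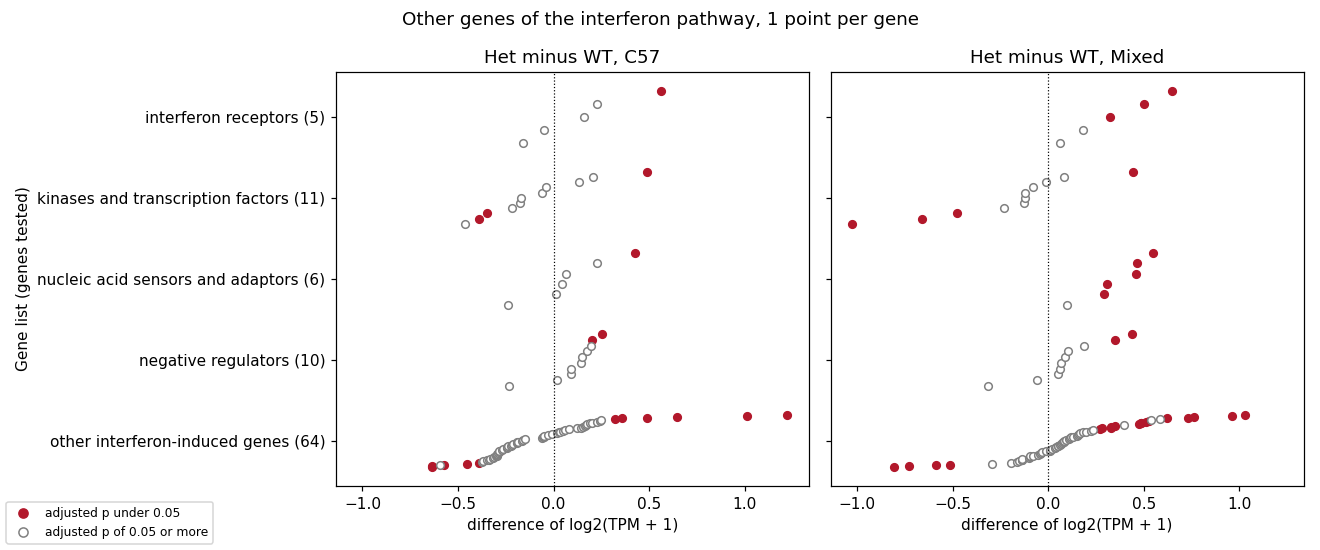
Difference of log2(TPM + 1) between Het and WT mice (x axes) for the other genes of the interferon pathway, 1 point per gene, ordered within each list (y axis, number tested in parentheses); red points have an adjusted p under 0.05. In Mixed islets 5 of 6 sensors and adaptors and 3 of 5 receptors are red and to the right of 0, and 3 of 4 red kinases and transcription factors are to the left. Over all genes, 30.7% were called higher and 13.5% lower in Mixed Het islets.

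Of 12 genes listed as negative regulators, 10 passed the filter. The list also held Isg20, an antiviral effector, so it is not a list of feedback genes alone. Whether feedback changed was not tested. Samhd1, which degrades the nucleotides needed for viral DNA synthesis, rose in Mixed Het islets (0.44, adjusted p = 0.000707, limma), and Isg20, an exonuclease gene, rose there by 0.35 (adjusted p = 0.00093), a call lost under median-of-ratios scaling (0.0821). In C57 Het islets Samhd1 (0.25, adjusted p = 0.0357) and Ptpn2 (0.20, adjusted p = 0.0367), a phosphatase that acts on Jak1, were called, and both calls were lost under median-of-ratios scaling (0.0621 and 0.248). That of Samhd1 was lost without C57 WT mouse 2, 3 or 5 or C57 Het mouse 1, 4, 5 or 6, and that of Ptpn2 without C57 WT mouse 1 or 5 or C57 Het mouse 1, 2, 4 or 5 (adjusted p up to 0.0948 and 0.118). Isg20 was higher in Mixed than in C57 islets of both genotypes, by 0.39 in WT mice (adjusted p = 0.00269) and by 0.59 in Het mice (adjusted p = 1.23e-05). Socs3, a feedback inhibitor of cytokine receptors, was 0.58 higher in Mixed WT mice (adjusted p = 0.0277), a call lost without C57 WT mouse 4 or 5 or any of Mixed WT mice 1 to 4 (adjusted p up to 0.0805).

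Among 79 other interferon-induced genes, 64 passed the filter. In C57 Het islets 6 were higher (26.4% of all genes) and 6 lower (11.6%), with a median of -0.18 beside 0.08 over all genes. Under median-of-ratios scaling 6 were higher and 15 lower. The largest rises were those of Irgm2 (1.22, adjusted p = 4.42e-06, limma) and Igtp (1.01, adjusted p = 9.23e-05), GTPases of the defence against intracellular microbes, and Lgals3bp (0.65, adjusted p = 3.48e-05), a secreted galectin-binding protein. The largest falls were those of Oas1c (-0.64, adjusted p = 0.000108) and Oas1b (-0.63, adjusted p = 0.00403), of the oligoadenylate synthetase family, and of Ly6a (-0.57, adjusted p = 0.03), a membrane protein of endothelial and other cells. The Ly6a call was lost without C57 WT mouse 1 or 5 or C57 Het mouse 1 (adjusted p up to 0.123). Of 7 endothelial markers tested, 4 were lower in C57 Het islets as well and 0 higher; their part in the Ly6a difference was not tested.

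In Mixed Het islets 15 of the 64 were higher (30.7% of all genes) and 4 lower (13.5%), with a median of 0.08 beside 0.10 over all genes. Under median-of-ratios scaling 10 were higher and 7 lower, with a median of -0.01. Lgals3bp rose by 1.03 (adjusted p = 4.02e-08, limma), Ube2l6, the enzyme that conjugates Isg15, by 0.96 (adjusted p = 2.35e-07), and Ifi47, another GTPase gene, by 0.76 (adjusted p = 0.00385). Cmpk2 was joined by Mx2, a dynamin-like antiviral protein (-0.73, adjusted p = 0.00598), and Stat3, a cytokine-activated transcription factor (-0.59, adjusted p = 0.0107), among the largest falls. Lgals3bp was thus the gene that was among the largest rises in both backgrounds, from 239 ± 31.7 to 373 ± 22.4 TPM in C57 and from 178 ± 15.5 to 367 ± 50.0 TPM in Mixed islets.

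The genotype difference differed between backgrounds for 10 of the 64 genes, against 7.36% of all genes. It was positive for 7 (4.62% of all genes) and negative for 3 (2.74%), and under median-of-ratios scaling for 6 and 5. Of the 3 largest each way, Ube2l6 (0.79, adjusted p = 0.00389, limma) kept its call in all 28 alternatives. Its means were 10.3 ± 1.07 and 11.7 ± 1.66 TPM in C57 WT and Het islets, and 5.85 ± 0.814 and 12.3 ± 1.31 TPM in Mixed WT and Het islets (SD, n = 5 and 6). Ifitm3 (1.18, adjusted p = 0.0429) and Ifitm1 (1.11, adjusted p = 0.0442), which block virus entry, and Stat3 (-0.84, adjusted p = 0.0455), Igtp (-0.83, adjusted p = 0.0342) and Irgm2 (-0.74, adjusted p = 0.0415) also passed. Each of these 5 calls was lost on leaving out any of 9 to 18 single mice, with adjusted p up to 0.0878. The macrophage markers given beside Bst2 moved in the direction of Ube2l6, Ifitm1 and Ifitm3, and their part was not tested.

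Between backgrounds, 2 of the 64 genes were higher (6.30% of all genes) and 17 lower (4.99%) in Mixed than in C57 WT islets. Their median was -0.23 beside 0.01. The largest falls were those of Ube2l6 (-0.72, adjusted p = 0.000157, limma), Trim34a (-0.66, adjusted p = 0.0181), a ring-finger protein gene, and Tgtp2 (-0.63, adjusted p = 0.0357). The 2 higher genes were Stat3 (0.80, adjusted p = 0.00717) and Mx1 (0.69, adjusted p = 0.0414), a dynamin-like antiviral protein. Several of these calls rested on few mice: that of Trim34a was lost without C57 WT mouse 1 or Mixed WT mouse 3, that of Tgtp2 without C57 WT mouse 1 or 5 or Mixed WT mouse 1, 2 or 4, and that of Mx1 without any C57 WT mouse or Mixed WT mouse 1, 2 or 3 (adjusted p up to 0.0583, 0.105 and 0.115). That of Stat3 was lost in a fit on WT mice alone (0.08). Most of the 17 lower genes, Tgtp2 among them, also lost their calls in that fit, while Ube2l6 and Trim34a kept theirs. Over all genes, the calls went from 1891 to 831 in that fit, and the cause was not tested.

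In Het mice 9 of the 64 were higher (13.3% of all genes) and 10 lower (7.14%) in Mixed islets, with a median of -0.02 beside 0.02. Under median-of-ratios scaling 8 were higher and 14 lower. Ifitm1 (0.80, adjusted p = 0.0133, limma), Slfn5 (0.76, adjusted p = 0.00145), a growth regulator of the Schlafen family, and Mx1 (0.72, adjusted p = 0.0124) were the largest rises. In this comparison 9 of 10 leukocyte and macrophage markers, 6 of 6 mesenchymal markers and 3 of 7 endothelial markers were also higher in Mixed islets and 0 lower, and their part in these rises was not tested. Cmpk2, Igtp (-0.99, adjusted p = 0.000167) and Irgm2 (-0.97, adjusted p = 9.78e-05) were the largest falls. Mx1 had 0.431 ± 0.0757 and 0.594 ± 0.393 TPM in C57 WT and Het islets and 1.38 ± 0.647 and 1.69 ± 0.995 TPM in Mixed WT and Het islets, so that it differed between backgrounds in the direction of Usp18 and against that of Rsad2.

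Mafa, the gene that carries the S64F change, was measured as a check of the labels, though a TPM value does not show the allele; its mRNA was at 441 ± 87.6 and 598 ± 143 TPM in C57 and Mixed WT and at 117 ± 23.2 and 152 ± 37.1 TPM in C57 and Mixed Het islets (SD, n = 5 and 6), lower in Het mice of both backgrounds (log2 differences -1.91 and -1.98, adjusted p = 1.14e-07 and 3.44e-08, limma). Between 14808 and 16126 genes reached 1 TPM in a mouse, the lowest correlation between mice of one group was 0.950, and 0 pairs of libraries were identical. The insulin genes took between 21.5 and 44.2% of a mouse's TPM. Since TPM shares out one total, other scalings shift all genes: under median-of-ratios scaling the median difference over all genes in Mixed islets went from 0.10 to -0.01. All genes called split into 4422 higher and 1939 lower in C57 Het islets, or 3520 and 3062 under that scaling, and into 5137 and 2256 in Mixed Het islets, or 3582 and 3746. The split of the interaction went from 774 positive and 459 negative to 703 and 1080, and that of background in Het mice from 2234 higher and 1196 lower to 1914 and 2011. That of background in WT mice, 1055 higher and 836 lower, became 1187 and 1434 under quantile normalization.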

How the data were processed

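Polyadenylated RNA of islets from 22 mice was sequenced, per the labels' protocols. The submitters' processing notes name STAR 2.7.10b, MultiQC 1.7 and mm39; the counting tool and annotation are not given in the sources used here. The authors deposited TPM for 57010 gene IDs in 22 columns, with 1 column for each mouse per the file headers. The sum of a column was 1000000 throughout, so depth is unknown, and 0 value columns were unused. Of rows with a repeated symbol, 150 were dropped and the row with the highest mean was kept. The labels' design gives an age of 5.5 weeks, used here, and the column names a range around it.

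Genes with at least 1 TPM in at least 5 mice (16749) were analysed as log2(TPM + 1), which understates changes of low genes. limma 3.58.1 in R 4.3.3 (eBayes with trend) fitted 4 group means over all 22 mice, with Benjamini-Hochberg adjustment over all genes and a threshold of 0.05. Contrasts were Het minus WT in each background, their difference, and Mixed minus C57 in each genotype; contrasts that share a group share its mice. SD, SE and 95% intervals are between mice. Correlations used deviations from group means, with values permuted within groups. Scripts were tested on simulated data. The members and gene lists were chosen with earlier results of these data known. All members were named; receptors, kinases, transcription factors and sensors tested could be named, as could the 3 largest called changes each way per contrast among negative regulators and other interferon-induced genes, and the 5 genes most like the members' mean deviation, leaving out provisional symbols. An item withheld for evaluation is not reported here. Promoters are from RefSeq (GRCm38.p6), not the build of the table. Alternatives were a pseudocount of 0.1, no filter, a mean of at least 5 TPM, median-of-ratios scaling, quantile normalization, fits on the contrast's mice alone, eBayes without trend and leaving out each mouse.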

Additional observations from a re-analysis of the deposited data

Results flagged for a closer look

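Of 36 sets of values (9 genes in 4 groups), 3 held a mouse that stood far from the rest of its group by Dixon's criterion, which chance meets in about 1 of 20 sets. Ifit2 was at 3.68 TPM in Mixed Het mouse 5, with the other mice between 2.34 and 2.66 TPM. Rsad2 was at 24.0 TPM in C57 WT mouse 5, with the others between 15.7 and 17.4 TPM. Usp18 was at 12.9 TPM in Mixed WT mouse 4, with the others between 18.9 and 20.8 TPM.

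For 13 genes, 1 of the 9 members and 12 of 96 pathway genes tested, the genotype difference in Mixed islets differed from that in C57 islets (limma, adjusted p under 0.05 for the difference itself). The share over all genes tested was 7.36%. The genotype difference is given below for these 13. It was larger in Mixed, in the positive direction, by 0.87 for Bst2, 1.18 for Ifitm3, 1.11 for Ifitm1, 0.79 for Ube2l6, 0.77 for Ifitm2, 0.75 for Ly6e, 0.66 for Ifi27, 0.61 for Irf5 and 0.57 for Epsti1. It was lower in Mixed, with a difference of -0.84 for Stat3, -0.83 for Igtp, -0.74 for Irgm2 and -0.57 for Jak1. The calls of Bst2, Ube2l6, Ly6e and Ifi27 held in all 28 alternatives. Of the other 9, Jak1 passed in 21 of 28, Igtp in 18 of 28 and Ifitm2 in 12 of 28 alternatives. Ifitm1 passed in 12 of 27, Ifitm3 and Irgm2 in 11 of 28 each, Irf5 and Epsti1 in 9 of 27 each, and Stat3 in 8 of 28.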

How the results depend on the processing

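No paired analysis was possible because mouse numbers were given in accession order and pair no mice. Of the counts of members called, that of genotype in Mixed (5) was 3 with a mean of at least 5 TPM, where only 5 members were tested, and 3 under median-of-ratios scaling. The count of background was 3 instead of 5 in WT mice and 5 instead of 3 in Het mice in fits on those mice alone. The count over all genes moved the same way in these fits, from 1891 to 831 in WT mice and from 3430 to 4205 in Het mice. The cause was not tested. Leaving out 1 mouse gave 1 to 3 members for genotype in C57 (2 with all mice; 1 without C57 WT mouse 4 or 5), 4 to 6 in Mixed, 4 to 6 for background in WT, 3 to 4 in Het mice, and 1 for the interaction. Some differences that were not called changed sign. Under median-of-ratios scaling these were the genotype differences of Ifit1 in C57 (-0.0278) and of Isg15 in Mixed (-0.00882). Leaving out 1 mouse, the genotype difference of Ifit1 in C57 ran from -0.0379 to 0.11 (below 0 without C57 WT 2 or 4 or C57 Het 1), that of Ifit3 in C57 from -0.26 to 0.000612 (above 0 without C57 WT 3) and that of Isg15 in Mixed from -0.10 to 0.32 (below 0 without Mixed WT 1 or 5). The Rsad2 interaction ran from -0.29 to 0.10 (above 0 without Mixed WT 1 or 3 or Mixed Het 2 or 6). The background difference in Het mice ran from -0.23 to 0.0366 for Ifit3 (above 0 without C57 Het 1), from -0.00425 to 0.22 for Ifit1 (below 0 without Mixed Het 3) and from -0.0554 to 0.0553 for Irf7 (above 0 without C57 Het 1 or 4 or Mixed Het 3 or 6). For pathway genes called, 0 alternatives changed the sign; 77 of 727 ended the call, as did 283 of 1344 with 1 mouse left out. Isg15 and Bst2 passed for background in Het mice alone (0.0443 and 0.038), and Bst2 without C57 Het mouse 2 (0.0412). Depth is unknown, so genes near 1 TPM are the least certain.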
